A study of Mus musculus with 10 samples.

Results

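DNA methylation was compared between mesenteric lymph nodes (mLN) and skin-draining peripheral lymph nodes (pLN) in non-endothelial stromal cells of adult BALB/c mice kept under specific pathogen-free (SPF) conditions. The regions described are the 806 differentially methylated regions (DMRs) that the authors listed for mLN against pLN in SPF mice, out of 2132 in their 4 tables. The rule used 3 mLN SPF and 3 pLN SPF libraries, 6 of the 10 in the series. Cells negative for CD45 and CD31 and positive for podoplanin (Pdpn, gp38) were sorted, with CD24 as a further negative marker in one protocol text and Ter119 in another, for whole-genome bisulfite sequencing, which leaves methylated cytosines unconverted, so that the unconverted fraction of reads gives the level of a CpG. The mLN were small intestinal and colon/caecum-draining nodes, and the pLN were inguinal with axillary or popliteal nodes. The tissue label of the pLN samples reads as skin-draining mesenteric, whereas their titles read pLN, and the titles were followed. Nothing in the labels says which libraries came from separate animals or pools. The 4 libraries of germ-free (GF) BALB/c mice, 2 of mLN and 2 of pLN, had played no part in calling these DMRs. By the study's methods, GF mice were 6 to 10 weeks old and derived by cesarean section at another site, and SPF mice were 7 to 12 weeks old, so housing and colony cannot be told apart. One mLN GF and 1 pLN GF replicate had been left out by the authors as outliers.

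CpG methylation at promoters and enhancers is laid down as cell lineages form, and regulatory regions in use tend to lose it. Homeobox, T-box and basic helix-loop-helix (bHLH) transcription factors set the position and identity of mesenchyme in the embryo, and adult fibroblasts keep differing in them from one body site to another. Mesenteric nodes lie in a fold of the gut's splanchnic mesoderm, while inguinal and axillary nodes lie in the body wall at the base of the limbs. The cells are podoplanin-positive reticular and perivascular fibroblasts that carry the node's scaffold. Expression was not measured in these libraries, so the sorted cell type could be checked only at markers that held a DMR, as given further on. A low level at a DMR therefore does not show that the nearest gene was in use. In separate RNA-seq, the paper found only a small overlap between genes with a less methylated DMR and genes of raised expression.

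By the sign of the authors' smoothed difference, 473 of the 806 DMRs were higher in mLN and 333 lower. This sign gives the direction in every count of DMRs as higher or lower in mLN. In 9 DMRs the unsmoothed SPF difference had the opposite sign. Methylation levels are unsmoothed percentages, averaged over the CpGs of a DMR in each library. Differences not called the authors' are unsmoothed too, as mLN minus pLN in percentage points. The SPF libraries chose the DMRs, so their differences are a description with no test. At 741 of 806 DMRs, 91.9%, the 3 mLN SPF libraries did not overlap the 3 pLN SPF libraries, a share fixed largely by that choice. The test used the GF libraries alone, with limma and Benjamini-Hochberg adjustment over all 806 DMRs. It called 718 DMRs in the authors' direction, 89.1% of all, and 0 in the opposite direction, with 723 at an unadjusted p under 0.05. The share called was 86.5% of the 473 DMRs higher in mLN and 92.8% of the 333 lower in mLN. The GF libraries of the nodes did not overlap at 755 DMRs, 93.7% of all. The median size was 31.3 points in SPF mice and 30.7 points in GF mice, against a median standard error of 4.75 points in the GF fit.

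The sequences shown here are the 200 bases with most CpGs in the highest-ranked intergenic or intronic DMR of 5 transcription factor genes, 3 less and 2 more methylated in mLN. They were read from GRCm38, forward strand, 5′ to 3′, and capitals mark each CpG. The order is Tbx15 at chr3:99239362-99239561, En1 at chr1:120613602-120613801, Tbx5 at chr5:119800554-119800753, Tcf21 at chr10:22844038-22844237 and Isl1 at chr13:116314202-116314401. All 5 windows are intergenic.
Tbx15: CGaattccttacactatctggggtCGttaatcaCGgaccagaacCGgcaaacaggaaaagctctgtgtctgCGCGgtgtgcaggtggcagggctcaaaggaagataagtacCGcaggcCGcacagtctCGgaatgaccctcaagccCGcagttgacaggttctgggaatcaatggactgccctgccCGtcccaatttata
En1: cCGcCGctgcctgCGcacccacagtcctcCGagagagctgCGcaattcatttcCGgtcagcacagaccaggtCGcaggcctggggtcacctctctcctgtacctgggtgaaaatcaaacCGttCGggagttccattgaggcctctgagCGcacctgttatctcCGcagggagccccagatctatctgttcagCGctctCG
Tbx5: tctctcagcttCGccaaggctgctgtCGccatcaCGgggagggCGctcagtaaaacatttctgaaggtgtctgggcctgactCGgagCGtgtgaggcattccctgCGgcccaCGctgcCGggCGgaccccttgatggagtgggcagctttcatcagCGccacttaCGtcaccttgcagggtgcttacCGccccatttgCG
Tcf21: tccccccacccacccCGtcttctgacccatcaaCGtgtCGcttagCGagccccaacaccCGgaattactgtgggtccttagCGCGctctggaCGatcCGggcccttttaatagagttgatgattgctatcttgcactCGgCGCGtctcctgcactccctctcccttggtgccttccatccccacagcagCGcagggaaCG
Isl1: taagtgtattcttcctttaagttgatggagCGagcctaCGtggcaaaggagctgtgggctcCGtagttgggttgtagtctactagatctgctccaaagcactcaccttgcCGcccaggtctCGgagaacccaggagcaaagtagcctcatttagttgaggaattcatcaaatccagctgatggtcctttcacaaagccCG
The Tbx15 window held 11 CpGs and had a mean of 1.29% in mLN SPF against 77.1% in pLN SPF, and of 7.92% in mLN GF against 76.8% in pLN GF. The 13 CpGs of the En1 window were each lower in mLN in both SPF and GF mice, by 9.52 to 73.0 points in GF mice. At the 14 CpGs near Tbx5 the means were 1.94% in mLN GF and 28.2% in pLN GF, with 12 CpGs lower in mLN. In the opposite direction, the 6 CpGs of the Isl1 window were each 46.7 to 57.8 points higher in mLN GF than in pLN GF. The Tcf21 window held 14 CpGs at low levels, 27.7% in mLN GF and 6.15% in pLN GF, and 12 of them were higher in mLN.

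**Figure D1:**
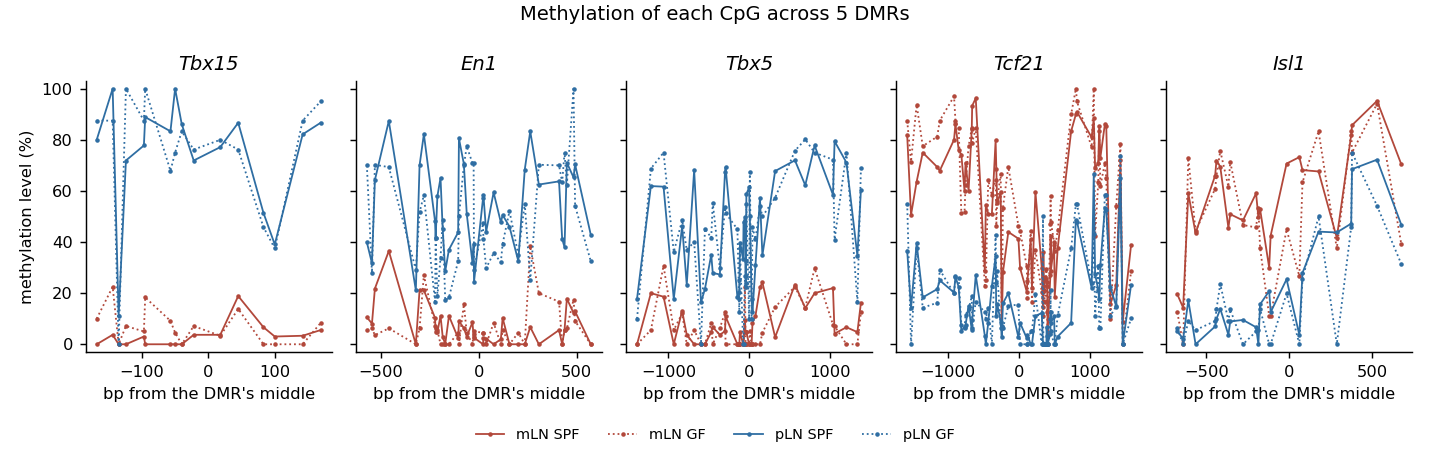
Methylation level in percent of each CpG (group mean over libraries) against its distance in bases from the middle of the DMR, for the DMRs that hold the 5 printed windows; red is mLN, blue is pLN, solid lines are SPF and dotted lines GF. The mLN lines run low and the pLN lines higher at Tbx15, En1 and Tbx5, and the order is turned at Tcf21 and Isl1.

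The authors' table names the gene with the nearest transcriptional start site (TSS), which need not be the gene a DMR acts on, and 547 genes were named. Lists of gene families were matched to these names by symbol. The 5 lists of transcription factors held 173 DMRs at 63 of 523 listed genes, 21.5% of all DMRs, of which 113 were lower and 60 higher in mLN. Lower methylation in mLN thus made up 65.3% of this group, against 41.3% of all 806 DMRs and 34.8% of the 633 outside it. In GF libraries 161 of the 173 (93.1%) were called, near the 89.1% of all DMRs. The median SPF size was 35.0 points, against 30.5 points outside the group. Among the 69 DMRs whose SPF difference reached 50 points, 28 lay nearest to a gene of these lists, 27 of them lower in mLN, and all 69 were called in GF libraries. DMRs of 1 gene share a locus and are not independent, so each share rests on fewer genes than DMRs.

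**Figure D2:**
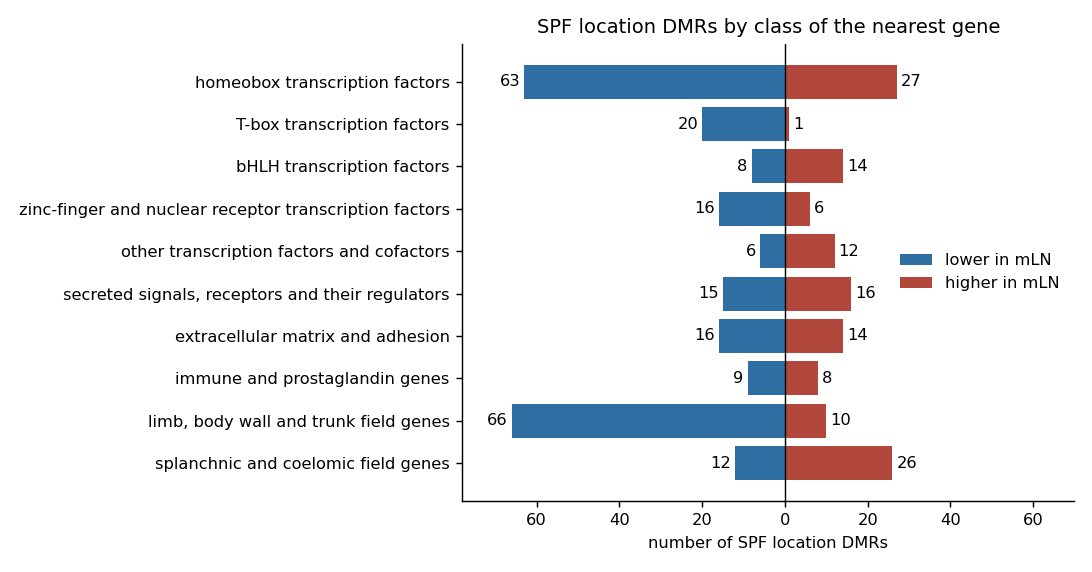
Number of SPF location DMRs by class of the nearest gene, with DMRs lower in mLN drawn to the left in blue and those higher in mLN to the right in red. The T-box and limb classes lie almost wholly to the left (20 of 21 and 66 of 76), while the splanchnic class has 26 of 38 to the right; the 2 lowest classes share genes with those above.

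T-box genes were nearly uniform. Of 17 genes on the list, 5 had a DMR, and 20 of their 21 DMRs were lower in mLN. All 21 were called in GF libraries, against 89.1% of all DMRs. Their median size was 43.8 points in SPF and 48.7 points in GF mice. The authors' smoothed difference reached 35 points in 18 of the 21, against 153 of all 806 DMRs. Only 1 of the 21 lay within 2000 bp of a TSS, and 10 within 5000 bp.

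Tbx15 encodes a factor of the limb and trunk skeleton and of skin patterning, and it had 5 DMRs between 5.42 kb upstream and 4.91 kb downstream of its TSS. The longest (chr3:99234432-99235489, 25 CpGs) overlapped a coding exon of the neighbouring gene Wars2. Its SPF libraries had 12.7%, 9.65% and 16.9% in mLN and 76.6%, 83.6% and 81.4% in pLN, and its GF libraries 9.49% and 7.73% in mLN and 75.2% and 78.3% in pLN. Every pLN library lay far above every mLN library, and the GF difference was -68.1 points (SE 4.12, limma, adjusted p = 0.000385). The DMR just upstream of the TSS, which holds the printed window, was the least methylated of the locus in mLN. Its mLN libraries had 1.26%, 1.14% and 7.27% in SPF and 7.77% and 5.89% in GF mice, and its pLN libraries 69.2%, 82.3% and 72.5% in SPF and 64.7% and 83.7% in GF mice. The GF difference there was -67.3 points (SE 6.80, limma, adjusted p = 0.000517).

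Tbx18, a gene of ureter and epicardial mesenchyme, had 4 intergenic DMRs from 9.40 to 3.85 kb upstream of its TSS, all lower in mLN. At chr9:87736842-87738036 (17 CpGs) the mLN libraries had 19.7%, 18.7% and 25.1% in SPF and 16.9% and 8.60% in GF mice. The pLN libraries had 86.9%, 82.9% and 85.9% in SPF and 86.6% and 94.6% in GF mice. The groups were far apart in both housing conditions, and the GF difference of -77.8 points (SE 5.20, limma, adjusted p = 0.000385) went beyond the SPF difference of -64.0 points. The difference between these was not called (interaction unadjusted p = 0.0428, adjusted p = 0.805 by limma).

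Tbx3 and Tbx5 lie on chromosome 5 and act in limb, heart and mammary development. The 5 DMRs of Tbx3 lay 11.8 to 4.80 kb upstream of its TSS, in exons or introns of the divergent transcript Tbx3os1, and 3 more DMRs lay at Tbx3os2. All 8 were lower in mLN and all 8 were called in GF libraries. Levels at the longest Tbx3 DMR (chr5:119663457-119664765, 21 CpGs) were intermediate in mLN, with 30.6%, 32.8% and 37.5% in SPF and 32.4% and 33.2% in GF mice. Its pLN libraries had 70.7%, 76.1% and 70.5% in SPF and 70.1% and 67.0% in GF mice. The GF difference was -35.8 points (SE 4.09, limma, adjusted p = 0.000666).

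Tbx5, required for the forelimb and the heart, had 5 DMRs lower in mLN and 1 higher. The most distant of the 5 (chr5:119799319-119802098, 39 CpGs, intergenic, 32563 bp from the TSS) had 3.07%, 5.99% and 12.6% in mLN SPF and 43.9%, 40.5% and 46.3% in pLN SPF. In GF mice it had 5.51% and 5.83% in mLN and 43.9% and 40.8% in pLN, a difference of -36.7 points (SE 4.08, limma, adjusted p = 0.000624). The intronic DMR that was higher in mLN (chr5:119868043-119868266, 5 CpGs) lay 33380 bp from the TSS on the other side. Its libraries had 64.8%, 38.6% and 44.8% in mLN SPF, 9.17%, 26.4% and 7.30% in pLN SPF, 37.3% and 52.0% in mLN GF and 18.4% and 17.2% in pLN GF. The nodes did not overlap, and the GF difference of 26.9 points had an adjusted p of 0.00515 by limma. With the median over CpGs in place of the mean this call was lost (adjusted p = 0.111 by limma). The fifth T-box gene, Tbr1, had 1 intronic DMR of 5 CpGs, where the SPF libraries of the nodes overlapped. Its GF call (adjusted p = 0.0155 by limma) was lost without replicate 1 of mLN GF (adjusted p = 0.0526) or of pLN GF (adjusted p = 0.0724), and with the median over CpGs (adjusted p = 0.0585).

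Homeobox genes held the most DMRs of any family, 90 at 26 of 183 listed genes. Of these, 63 were lower and 27 higher in mLN, and 85 (94.4%) were called in GF libraries, against 89.1% of all DMRs. By gene, 12 had DMRs lower in mLN alone, 10 higher alone and 4 both. The authors' difference reached 35 points in 46 of the 90. Those lower alone included En1, Lmx1b, Meis1, Meis2 and Tshz2, and those higher alone included Isl1, Nkx3-2, Prrx1, Pou1f1 and Gsc. Emx2 and Shox2 were mixed, with most of their DMRs lower in mLN.

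En1 encodes engrailed, which patterns the limb and marks a lineage of dermal fibroblasts. All 9 DMRs of En1 were lower in mLN, from 11.1 kb upstream to 15.0 kb downstream of the TSS, and all 9 were called in GF libraries. The one of the printed window (chr1:120613255-120614398, 32 CpGs) had 6.23%, 6.12% and 8.96% in mLN SPF and 61.4%, 57.2% and 40.1% in pLN SPF. In GF mice it had 7.64% and 5.10% in mLN and 54.2% and 42.9% in pLN. The mLN libraries were nearly free of methylation while the pLN libraries varied, and the GF difference was -42.2 points (SE 5.22, limma, adjusted p = 0.000731). SPF differences over the 9 DMRs ran from -55.3 to -11.9 points.

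Emx2, a homeobox gene of the urogenital tract, forebrain and shoulder blade, had the most DMRs of any gene. Of 13 DMRs, 12 lay between 7.35 kb upstream and 8.78 kb downstream of the TSS and were lower in mLN, and all 13 were called in GF libraries. At chr19:59465877-59467391 (32 CpGs, intergenic) the mLN libraries had 13.0%, 11.3% and 18.5% in SPF and 7.89% and 12.5% in GF mice. The pLN libraries there had 64.4%, 70.1% and 71.8% in SPF and 66.9% and 64.0% in GF mice, and the GF difference was -55.3 points (SE 4.28, limma, adjusted p = 0.000434). The one DMR of opposite direction (chr19:59423654-59424247, 8 CpGs) lay 34123 bp from the TSS. It had 46.3%, 49.2% and 38.2% in mLN SPF and 13.5%, 20.5% and 4.71% in pLN SPF, and its GF difference was 27.8 points (SE 5.79, limma, adjusted p = 0.00431).

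Shox2, which shapes the proximal limb skeleton, showed the same arrangement of a near block and a distant DMR. Its 7 DMRs within 8.54 kb of the TSS were all lower in mLN, with the DMR at the TSS (chr3:66977016-66978614, 36 CpGs) at 9.54%, 13.6% and 17.6% in mLN SPF and 77.0%, 70.3% and 75.1% in pLN SPF. In GF mice that DMR had 13.5% and 11.8% in mLN and 75.2% and 75.4% in pLN (difference -62.7 points, SE 4.02, limma, adjusted p = 0.000385). A further DMR 230466 bp from the TSS had 77.9%, 79.4% and 75.7% in mLN SPF and 45.1%, 48.6% and 43.5% in pLN SPF, so it was higher in mLN. Its GF difference was 28.6 points (SE 4.06, limma, adjusted p = 0.00102).

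Lmx1b, the factor of dorsal limb identity, had 5 intronic DMRs within 3.15 kb of a TSS, all lower in mLN. The longest (chr2:33633332-33635732, 31 CpGs) had 13.5%, 11.5% and 14.6% in mLN SPF, 59.8%, 61.6% and 52.4% in pLN SPF, 9.56% and 9.57% in mLN GF and 62.3% and 63.2% in pLN GF. The GF difference was -53.2 points (SE 4.00, limma, adjusted p = 0.000412), with little spread between libraries of a node.

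**Figure D3:**
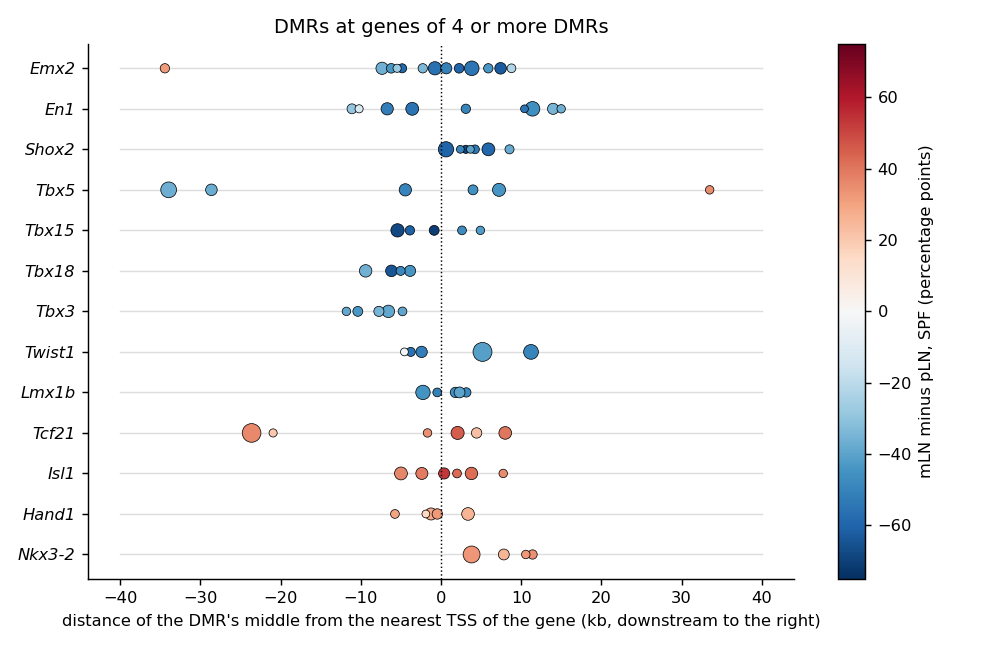
Distance in kb of each DMR's middle from the nearest TSS of its gene (downstream to the right; DMRs over 40 kb away are not drawn) for 13 genes with at least 4 DMRs; colour gives the SPF difference in percentage points and the area of a point grows with the CpG number. At Emx2 and Tbx5 a single distant DMR is higher in mLN. All DMRs drawn for En1, Shox2, Tbx15, Tbx18, Tbx3, Twist1 and Lmx1b are lower in mLN, and those of Tcf21, Isl1, Hand1 and Nkx3-2 are higher. The 13 genes were picked by hand from 24 with at least 4 DMRs. Hlx, a gene of the splanchnic list that is not drawn, had 4 DMRs, all lower in mLN.

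Homeobox genes higher in mLN included genes of organ mesoderm. Isl1, a LIM-homeobox gene of the heart field and pancreatic mesenchyme, had 6 DMRs from 4.99 kb upstream to 7.76 kb downstream of the TSS, 3 of them on coding exons. All 6 were higher in mLN, by 33.0 to 54.0 points in GF mice, and all 6 were called. The one of the printed window (chr13:116314004-116315355, 23 CpGs) had 58.5%, 58.8% and 55.5% in mLN SPF and 16.9%, 23.7% and 22.4% in pLN SPF. Its GF libraries had 45.4% and 56.2% in mLN and 16.4% and 19.1% in pLN, a difference of 33.0 points (SE 5.12, limma, adjusted p = 0.00139).

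Prrx1, a marker of limb bud mesenchyme, had 2 DMRs, both higher in mLN. The DMR at chr1:163308926-163310398 (21 CpGs) had 53.7%, 51.2% and 51.0% in mLN SPF, 3.37%, 5.07% and 2.58% in pLN SPF, 53.7% and 54.2% in mLN GF and 3.13% and 2.57% in pLN GF. The pLN libraries were almost free of methylation there, and the GF difference was 51.1 points (SE 3.99, limma, adjusted p = 0.000441). This DMR belonged to a group of 7 DMRs over 53413 bp that were all higher in mLN, 6 of them called in GF libraries.

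The DMR with the largest SPF difference of all lay upstream of Nkx2-3, the homeobox gene of gut and spleen mesenchyme, and was nearest to the predicted gene Gm20467. The Gm20467 DMRs numbered 9, all higher in mLN, and 8 were called in GF libraries. At chr19:43601952-43602821 (16 CpGs) the mLN libraries had 82.0%, 76.5% and 69.3% in SPF and 78.8% and 85.8% in GF mice. The pLN libraries had 2.58%, 8.34% and 9.85% in SPF and 7.66% and 9.73% in GF mice, and the GF difference was 73.6 points (SE 4.52, limma, adjusted p = 0.000385). The neighbouring DMR of 4 CpGs (chr19:43603139-43603229) was the one of the largest SPF difference, 76.4 points. Within this group of 12 DMRs over 51849 bp, the DMR beside Nkx2-3 itself was the single one lower in mLN, with a GF difference of -31.3 points (SE 4.08, limma, adjusted p = 0.000823).

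The bHLH list had 22 DMRs at 7 of 71 genes, 14 higher and 8 lower in mLN. In GF libraries 20 of the 22 (90.9%) were called, against 89.1% of all DMRs. No gene was mixed: Tcf21, Hand1, Tcf4 and Id2 were higher, and Twist1, Twist2 and Sim1 lower. Twist1 drives limb and cranial mesenchyme, and its DMR of 60 CpGs (chr12:33961083-33964603) lay 3412 bp from the TSS. It had 19.7%, 24.7% and 29.2% in mLN SPF, 66.5%, 64.4% and 66.0% in pLN SPF, 23.1% and 22.0% in mLN GF and 65.9% and 57.4% in pLN GF. The GF difference was -39.1 points (SE 4.70, limma, adjusted p = 0.000731). All 5 Twist1 DMRs were lower in mLN and called in GF libraries, although 1 of 3 CpGs differed by only -2.67 points in SPF mice.

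Tcf21, a factor of epicardial, lung, kidney and spleen mesenchyme, had 6 DMRs, each higher in mLN and called in GF libraries. The longest (chr10:22842157-22845312, 58 CpGs) lay 22028 bp from the TSS and had 53.7%, 51.4% and 52.4% in mLN SPF and 13.2%, 16.0% and 19.6% in pLN SPF. Its GF libraries had 53.5% and 53.7% in mLN and 14.4% and 19.8% in pLN, so the difference was 36.5 points (SE 4.28, limma, adjusted p = 0.000713). A DMR over a coding exon (chr10:22817302-22818816) had group means of 60.3% in mLN SPF and 14.9% in pLN SPF. Where Tcf21 overlaps the transcript Gm10824 on this stretch, methylation cannot be assigned to either.

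Hand1, expressed in lateral plate mesoderm, had 5 DMRs higher in mLN. The DMR at its UTR (chr11:57828310-57829246, 22 CpGs) had 52.5%, 36.5% and 37.6% in mLN SPF and 17.6%, 15.4% and 18.1% in pLN SPF. In GF mice it had 53.6% and 41.3% in mLN and 8.10% and 10.4% in pLN (difference 38.1 points, SE 5.38, limma, adjusted p = 0.00100). The most upstream Hand1 DMR did not repeat in GF mice. That DMR (chr11:57838449-57838668, 6 CpGs) had 64.6%, 62.6% and 42.8% in mLN SPF against 14.3%, 26.8% and 37.7% in pLN SPF, but 27.5% and 38.3% in mLN GF against 47.8% and 33.3% in pLN GF. The GF libraries overlapped and their difference was -7.65 points (SE 6.57, limma, adjusted p = 0.303), and the interaction had an unadjusted p of 0.00622 and an adjusted p of 0.771 by limma. With the median over CpGs the opposite GF difference was called, at -16.3 points (adjusted p = 0.0431 by limma).

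Among zinc-finger and nuclear receptor genes, 16 of 22 DMRs were lower in mLN, and 17 of the 22 (77.3%) were called in GF libraries, a share below that of all DMRs. Zbtb38, a zinc-finger protein that binds methylated DNA, had an intronic DMR (chr9:96739616-96740644) at 14.3%, 18.9% and 22.5% in mLN SPF and 73.7%, 72.3% and 64.1% in pLN SPF. The GF difference there was -50.8 points (SE 5.83, limma, adjusted p = 0.000666). A second Zbtb38 DMR of 6 CpGs was not called, with an SPF difference of -7.77 points and a GF difference of 1.71 points (SE 12.8, limma, adjusted p = 0.900). Prdm16, a regulator of brown fat and mesenchymal fate, had -43.6 points in its first-ranked DMR in GF mice (SE 5.38, limma, adjusted p = 0.000731). Nr2f2, which encodes the orphan receptor COUP-TFII, had 3 DMRs, all lower in mLN and called. Osr1, a factor of intermediate and lateral plate mesoderm, was not called in GF mice. Its SPF libraries had 33.1%, 34.9% and 31.5% in mLN and 61.2%, 59.4% and 59.0% in pLN, while GF mLN had 51.3% and 37.4% and GF pLN 53.1% and 61.4%. The GF difference at Osr1 was -12.9 points (SE 6.14, limma, adjusted p = 0.0872), and without replicate 1 of mLN GF it was -19.9 points (adjusted p = 0.0383 by limma). With group means over all 10 libraries the same difference at Osr1 was called (adjusted p = 0.0297 by limma). That fit also draws on the spread of the SPF libraries, which was used in calling the DMRs. At Osr1 the standard deviations were 1.68 points in mLN SPF and 1.15 in pLN SPF, against 9.84 in mLN GF and 5.80 in pLN GF.

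Wt1, a zinc-finger gene of the coelomic lining, was higher in mLN at its 3 DMRs. At the coding exon DMR (chr2:105132996-105133827, 35 CpGs) the mLN libraries had 66.8%, 58.0% and 65.3% in SPF and 76.7% and 67.7% in GF mice. The pLN libraries had 19.5%, 11.2% and 23.1% in SPF and 15.2% and 15.1% in GF mice, giving a GF difference of 57.0 points (SE 4.76, limma, adjusted p = 0.000456). The Wt1 DMR of 3 CpGs was not called (adjusted p = 0.401 by limma) and rested on 1 library: it was 31.4 points without replicate 1 of mLN GF (adjusted p = 0.0272 by limma) and -7.48 points without replicate 2 (adjusted p = 0.455 by limma). Of the 18 DMRs on the list of other transcription factors, 12 were higher in mLN. All 18 were called in GF libraries, against 89.1% of all DMRs. Runx1, a regulator of blood and mesenchymal lineages, had 3 of them, all higher in mLN. Its intronic DMR (chr16:92737849-92739268) had 79.2%, 83.7% and 84.0% in mLN SPF and 53.1%, 48.2% and 51.2% in pLN SPF, with a GF difference of 36.2 points (SE 4.14, limma, adjusted p = 0.000666). In the same list Nfkb1, a subunit of NF-kB, was lower in mLN at its TSS, by 35.6 points in GF mice (SE 4.26, limma, adjusted p = 0.000731).

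Regrouped by embryonic field, the same genes split by direction. The list of limb, body wall and trunk genes had 76 DMRs at 19 of 37 genes, 66 lower and 10 higher in mLN. The list of splanchnic and coelomic genes had 38 DMRs at 13 of 26 genes, 12 lower and 26 higher. In GF libraries 75 of the 76 (98.7%) and 34 of the 38 (89.5%) were called, against 89.1% of all DMRs. By gene only the limb list leaned to 1 direction, with 11 genes lower alone, 4 higher alone and 4 mixed. The splanchnic list did not, with 7 genes lower alone, among them Hlx, Nkx2-3, Nr2f2 and Osr1, and 6 higher alone. The directions therefore rested in part on the genes with many DMRs, such as Emx2 with 13 on the limb list. Outside groups of at least 4 neighbouring DMRs, 9 of 15 DMRs of the limb list and 7 of 9 of the splanchnic list were lower in mLN, so the splanchnic majority turned there. The lists were written when results of these data were known, so the split is a description and no evidence of its own.

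DMRs of 1 locus mostly had the same direction in the authors' smoothed difference. Of 140 genes with at least 2 DMRs, 127 (90.7%) had all of them in 1 direction, and of 24 genes with at least 4 DMRs, 20 did. Neighbouring DMRs no more than 50 kb apart formed 26 clusters of at least 4 DMRs, which held 168 DMRs or 20.8% of all. In 11 clusters every DMR was lower in mLN, in 8 every DMR was higher and 7 were mixed. Of the 168 DMRs, 155 (92.3%) were called in GF libraries, near the 89.1% of all DMRs. Beside the loci described above, a group of 6 DMRs lower in mLN lay at the transcript 8430419K02Rik on chromosome 11 and 6 DMRs higher in mLN lay around Gm26146 on chromosome 9, and all 12 were called. Among 83 pairs of neighbouring DMRs, 79 had 1 direction, while 442 DMRs had no neighbour within 50 kb. Direction here is the sign of the authors' smoothed SPF difference, and smoothing draws on neighbouring CpGs. Agreement between neighbours is thus partly built in, and neighbours also share libraries and sequence context. Some genes counted as 1 direction were mixed in unsmoothed SPF differences, such as Gm22127 (-17.1 to 32.0 points) and Gm21817 (-7.63 to 38.8 points).

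Genes of signalling and matrix had DMRs in both directions. The list of secreted signals, receptors and their regulators had 31 DMRs at 27 of 200 genes, 16 higher and 15 lower in mLN. In GF libraries 27 of the 31 (87.1%) were called, against 89.1% of all DMRs. The median SPF size was 29.3 points, and none reached 50 points. Fzd10, a Wnt receptor, had an intergenic DMR 34484 bp from its TSS (chr5:128635590-128637777, 37 CpGs) with 86.6%, 88.5% and 80.0% in mLN SPF and 43.8%, 45.9% and 40.3% in pLN SPF. In GF mice it had 85.5% and 87.8% in mLN and 47.0% and 47.2% in pLN, a difference of 39.5 points (SE 4.04, limma, adjusted p = 0.000517). Klb encodes beta-Klotho, the co-receptor of endocrine FGFs, and its DMR at the TSS (chr5:65348057-65349105) had 70.9%, 73.0% and 71.9% in mLN SPF and 35.4%, 31.9% and 28.9% in pLN SPF. The GF difference at Klb was 30.9 points (SE 4.42, limma, adjusted p = 0.00105). Also higher in mLN were Oxtr, the oxytocin receptor, by 18.6 points in GF mice (SE 4.52, limma, adjusted p = 0.00814), and Slit2, a guidance ligand, by 23.3 points (SE 5.24, limma, adjusted p = 0.00585).

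Receptors lower in mLN included Ednrb, the endothelin B receptor. Its DMR (chr14:103816475-103818098, 29 CpGs, coding exon) had 34.1%, 28.3% and 39.5% in mLN SPF, 63.0%, 59.4% and 68.9% in pLN SPF, 38.6% and 36.7% in mLN GF and 68.1% and 72.4% in pLN GF. The libraries of the nodes did not overlap, and the GF difference was -32.6 points (SE 4.21, limma, adjusted p = 0.000799). A DMR of 37 CpGs was nearest to Kit, the receptor of stem cell factor, but lay 88162 bp from its TSS in an exon of Gm43101. Its GF difference was -25.1 points (SE 4.68, limma, adjusted p = 0.00281).

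The list of extracellular matrix and adhesion genes had 30 DMRs at 27 of 130 genes, 16 lower and 14 higher in mLN. In GF libraries 28 of the 30 (93.3%) were called, against 89.1% of all DMRs. Dcn encodes decorin, a collagen-binding proteoglycan of fibroblasts. Its intergenic DMR (chr10:97470359-97472094, 20 CpGs, 7404 bp from the TSS) had 36.3%, 44.1% and 45.7% in mLN SPF and 74.1%, 74.0% and 72.6% in pLN SPF. In GF mice the DMR had 38.5% and 47.3% in mLN and 77.0% and 69.0% in pLN, with a difference of -30.1 points (SE 5.27, limma, adjusted p = 0.00219). The neighbouring proteoglycan gene Lum also had 1 DMR lower in mLN. Egflam, which encodes the matrix protein pikachurin, was nearest to a DMR 115579 bp from its TSS with 72.0%, 72.9% and 67.6% in mLN SPF and 36.7%, 36.7% and 36.4% in pLN SPF. The GF difference there was 33.9 points (SE 4.11, limma, adjusted p = 0.000731). At Tenm3, an adhesion receptor of the teneurin family, 2 DMRs were lower in mLN. The larger one had pLN SPF libraries spread from 53.4% to 87.3%, and a GF difference of -28.9 points (SE 4.53, limma, adjusted p = 0.00146).

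Immune and prostaglandin genes had 17 DMRs at 15 of 98 genes, 9 lower and 8 higher in mLN. In GF libraries 14 of the 17 (82.4%) were called, against 89.1% of all DMRs. Those of the prostaglandin pathway did not share a direction. Ptgs1 encodes cyclooxygenase-1, which starts prostanoid synthesis. The DMR in its coding exon (chr2:36244764-36245328, 11 CpGs) had 48.4%, 48.5% and 63.6% in mLN SPF, 91.9%, 80.6% and 91.5% in pLN SPF, 41.8% and 38.4% in mLN GF and 93.7% and 76.1% in pLN GF. It was lower in every mLN library, and the GF difference was -44.8 points (SE 6.54, limma, adjusted p = 0.00112). Hpgd, which degrades prostaglandins, was lower in mLN by 30.3 points in GF mice (SE 6.70, limma, adjusted p = 0.00554), while the prostaglandin receptor gene Ptger2 had 1 DMR higher in mLN. The DMR of Ptgis, the prostacyclin synthase gene, had 48.2%, 26.7% and 34.5% in mLN SPF and 60.8%, 73.5% and 59.8% in pLN SPF, which did not overlap. In GF mice it was not called, with a difference of -1.29 points (SE 5.61, limma, adjusted p = 0.833), and the interaction had an unadjusted p of 0.0147 and an adjusted p of 0.771 by limma.

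Gpr65, a proton-sensing receptor of immune cells, was nearest to an intergenic DMR 65271 bp from its TSS (chr12:98333906-98335358, 32 CpGs). It had 83.2%, 83.3% and 79.3% in mLN SPF, 30.4%, 27.0% and 27.6% in pLN SPF, 75.7% and 85.8% in mLN GF and 29.3% and 30.8% in pLN GF. The GF difference was 50.7 points (SE 4.96, limma, adjusted p = 0.000487). A second DMR nearest to the same gene lay among the 5 with the smallest unsmoothed SPF difference, at 0.922 points. Clu, which encodes clusterin, had a DMR at its TSS with 42.0%, 51.6% and 40.6% in mLN SPF and 9.49%, 8.25% and 16.6% in pLN SPF. In GF mice the Clu DMR had 31.9% and 34.4% in mLN and 23.3% and 17.6% in pLN, a difference of 12.7 points (SE 4.38, limma, adjusted p = 0.0315) against 33.3 points in SPF mice. The interaction at Clu had an unadjusted p of 0.00830 and an adjusted p of 0.771 by limma. The GF call was lost without replicate 1 of mLN GF (adjusted p = 0.0759), replicate 2 of mLN GF (adjusted p = 0.124) or replicate 2 of pLN GF (adjusted p = 0.126), each by limma.

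**Figure D4:**
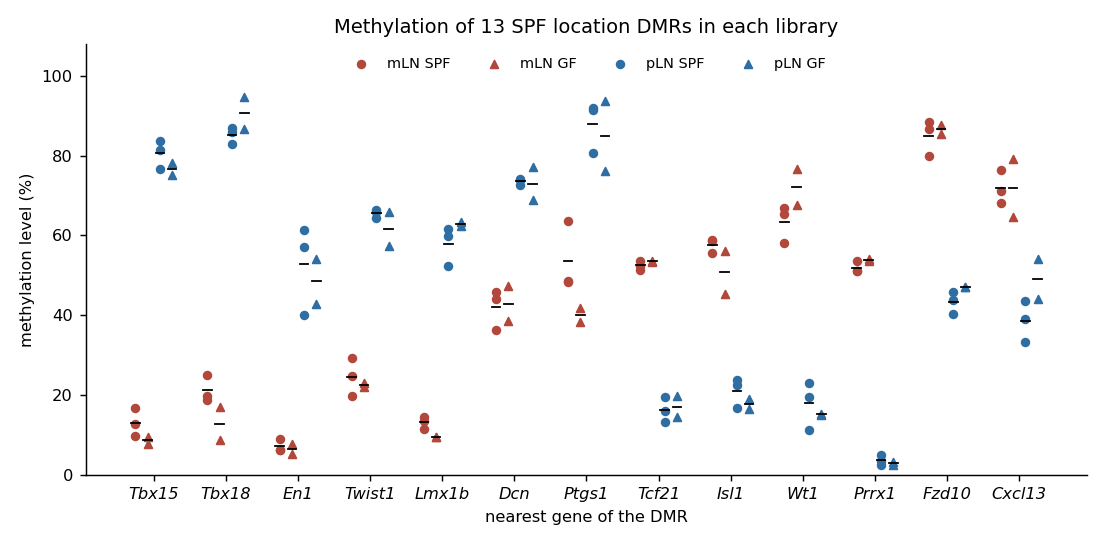
Methylation level in percent of 13 DMRs in each of the 10 libraries, with red for mLN, blue for pLN, circles for SPF, triangles for GF and black bars for the mean of each group. No mLN library overlaps a pLN library of either housing in any of these DMRs, which were picked by hand. Of all 806 DMRs, 91.9% had no overlap in SPF and 93.7% none in GF libraries. DMRs with overlap, such as those of Ptgis and upstream of Hand1 in GF mice, are not drawn.

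Markers of the sorted and of other cell types were looked up among the nearest genes. Of 29 lymph node stromal markers, 3 had a DMR, namely Ptgs1, Ptgis and Cxcl13, and 2 of the 3 were called in GF libraries. For Cxcl13, the B cell chemokine, the GF call (22.9 points, SE 6.50, limma, adjusted p = 0.0151) was lost without replicate 1 of mLN GF (adjusted p = 0.0866) or of pLN GF (adjusted p = 0.0802), and with the median over CpGs (adjusted p = 0.192). Of 14 endothelial markers, Erg and Kdr had a DMR, with Erg higher and Kdr lower in mLN. Among 18 blood cell markers, Dock2 had 1 DMR higher and Ubash3a 2 DMRs lower in mLN. The 12 epithelial and mesothelial markers gave Wt1, with 3 DMRs higher, and Lrrn4, with 1 lower, and none of 10 perivascular and smooth muscle markers had one. Erg, an endothelial transcription factor, had 60.8%, 49.8% and 57.3% in mLN SPF and 27.3%, 21.8% and 21.4% in pLN SPF at chr16:95588979-95590800. Dock2, a leukocyte guanine exchange factor, had 79.0%, 79.6% and 73.9% in mLN SPF and 46.4%, 57.1% and 55.2% in pLN SPF. The part of other cells in the sorted samples was not tested, and in a bulk sample a different mix of cells and a different level in the same cells cannot be told apart.

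DMRs of the 2 directions lay in different surroundings. Of those higher in mLN, 254 of 473 (53.7%) were intergenic, against 111 of 333 (33.3%) of those lower in mLN. Introns of protein-coding genes held 106 (22.4%) of the higher and 115 (34.5%) of the lower DMRs, and coding exons 47 (9.94%) and 42 (12.6%). The median distance to the nearest TSS was 28.8 kb for higher and 6.78 kb for lower DMRs. By biotype of the nearest gene, 780 DMRs matched GENCODE by symbol, and 246 of the 481 nearest to a protein-coding gene were higher in mLN. Of the 107 nearest to a small RNA gene, such as a microRNA or small nuclear RNA, 77 were higher in mLN, against 473 of all 806. In GF libraries 101 of the 107 (94.4%) were called, against 89.1% of all. These 107 lay at a median of 52.9 kb from the TSS, against 15.4 kb for all DMRs.

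CpG islands were rare among the DMRs. In the 1000 bases around each DMR's middle, the ratio of observed to expected CpGs reached 0.6 in 21 of 806 DMRs (2.61%). Median GC content was 44.6% for DMRs higher in mLN and 46.7% for those lower. The less methylated node had a median level of 34.5% and the more methylated node 68.3%. In 532 DMRs (66.0%) both group means lay between 20% and 80%, and in only 4 did the lower mean lie under 20% with the higher one over 80%.

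A window of 300 bases around the middle of each DMR was searched on both strands for 4 short motifs, none of which contains another. At DMRs shorter than 300 bases the window took in flanking sequence, so a motif counted for a DMR may lie beside it. The homeobox-type motif TAATTA was present in 64 of 473 DMRs higher in mLN (13.5%) and in 19 of 333 lower in mLN (5.71%), against 5.29% of 32851 RefSeq promoters of the same length (GRCm38). CAGCTG, a bHLH-type E-box, was present in 20.7% of the higher and 12.6% of the lower DMRs and in 16.3% of promoters. AGGTGT, the core of T-box motifs, was present in 72 of the 473 higher DMRs, in 40 of the 333 lower DMRs and in 13.7% of promoters. The TALE-type TGACAG was present in 24.7% of the higher DMRs, 23.7% of the lower DMRs and 19.2% of promoters. The higher DMRs were also the ones of lower GC content, and its part in the motif shares was not tested. Only 149 of the 806 DMRs lay within 2000 bp of a TSS, so promoters are an unlike background for most of them. The DMRs nearest to the listed transcription factors held TAATTA in 5.20%.

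Sizes in SPF and GF mice followed each other from DMR to DMR. Taken in the authors' direction, they had a Pearson r of 0.814 over the 806 DMRs, which share their libraries and are not independent, so no p is given. Within the DMRs, 87.4% of the CpGs with a GF value in both nodes differed in the authors' direction. The location by housing interaction was called in 0 of 806 DMRs by limma over all 10 libraries, with a smallest adjusted p of 0.607 and 49 DMRs at an unadjusted p under 0.05. In 34 of these 49 the difference was smaller in GF mice. The SPF libraries had chosen the DMRs, which enlarges the SPF side of this contrast and by itself favours a smaller GF difference. Neither count is therefore a measure of housing, and the interaction values given for single DMRs carry the same limit. Of the 88 DMRs not called in GF libraries, 39 held fewer than 5 CpGs with values, and 96 of all 806 did.

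**Figure D5:**
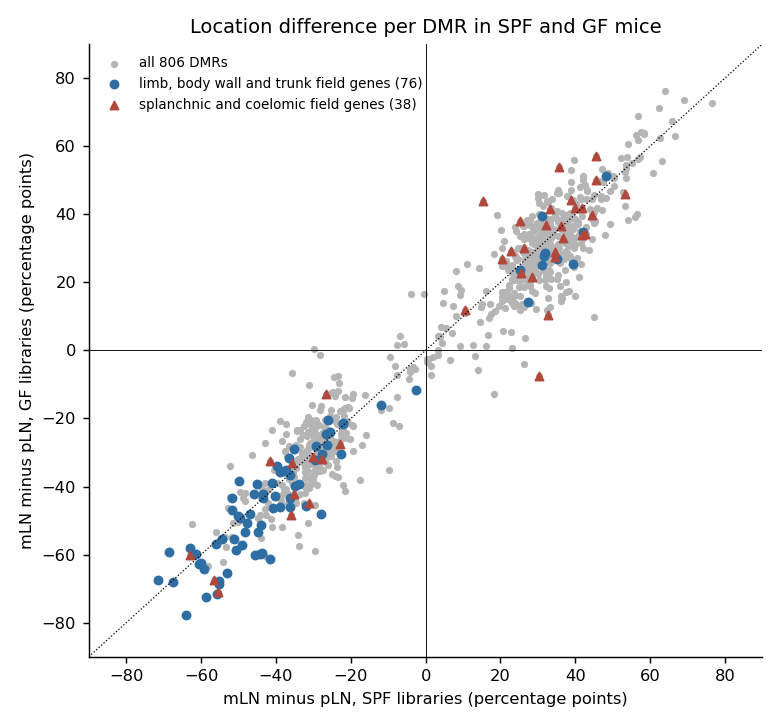
GF difference against SPF difference (mLN minus pLN, percentage points) for each of the 806 DMRs, with limb, body wall and trunk genes as blue circles, splanchnic and coelomic genes as red triangles and equality as a dotted line. Most points lie near the line in the upper right or lower left; the red triangle below the horizontal axis at an SPF difference of 30.4 points is the upstream Hand1 DMR.

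The GF difference had the opposite sign to the authors' difference in 20 DMRs, and 11 of these held 3 CpGs by the authors' count. The largest opposite value was at an intronic DMR nearest to Gm22127 (3 CpGs), where the unsmoothed SPF values went against the authors' direction as well. Its libraries had 55.2%, 52.7% and 37.5% in mLN SPF, 43.0%, 68.7% and 85.0% in pLN SPF, 74.6% and 32.2% in mLN GF and 92.0% and 70.3% in pLN GF. The spread within each group was wide, and the GF difference of -27.8 points (SE 14.3) was not called (limma, adjusted p = 0.109). Without replicate 1 of mLN GF it was -48.9 points (adjusted p = 0.0145 by limma). Other DMRs of this kind were nearest to Gm21817, Zxdb, Hand1, Hnf4g, Gm26905, Syt1 and Polq, all of 6 CpGs or fewer. The GF call at the DMR nearest to Gm26905 appeared with the median over CpGs alone (-26.7 points, adjusted p = 0.00797 by limma).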

How the data were processed

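Whole-genome bisulfite libraries were trimmed and aligned to GRCm38 by the authors (submitters' processing notes: FastQC 0.11.1, cutadapt 1.4 and BSMAP 2.4.3). The authors kept CpGs by coverage, smoothed them with bsseq and listed DMRs of at least 3 CpGs. The deposited CpG table gives unsmoothed methylation as a fraction of reads per library. The deposited DMR table gives the authors' smoothed difference and areaStat, a score used here only to rank DMRs. Read numbers per CpG were not used here, so the depth behind each value is unknown and no counting interval is given.

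All 15395 CpGs of the 806 DMRs matched a CG in GRCm38. Fractions times 100 were averaged per DMR and library. CpG numbers are the authors' count, except that the minimum of 5 CpGs counts those with values in the table. Fits used limma 3.58.1 in R 4.3.3 (lmFit, eBayes, adjusted p under 0.05), tested on simulated data. Features came from GENCODE M21; a coding exon or UTR was named wherever a DMR touched one. Groups came from sample titles. Named DMRs were those with the largest areaStat per class, direction and gene (up to 5), genes or clusters (gap up to 50 kb) with at least 4 DMRs, marker genes, up to 8 of opposite GF sign, and the 5 largest and 5 smallest differences; Lum, Ptger2, a further DMR each of Tcf21 and Nr2f2 and the printed windows were added after values were seen. Members, lists and tests were chosen with earlier results of these data known, and gene names had been seen in the study's source data. P-values measure only the spread between these libraries. With 2 libraries per GF group, eBayes also draws the SE of each DMR towards a spread shared by all 806 DMRs. At the longest Lmx1b DMR the GF standard deviations were 0.00464 points in mLN and 0.655 in pLN, with an SE of 4.00. Some genes are not reported here.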

Additional observations from a re-analysis of the deposited data

How the results depend on the processing

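Calls in GF libraries (718 of 806) were 665 with the median over CpGs (2 more were called in the opposite direction), 717 with CpGs that had a value in all 10 libraries, 704 on a logit scale (offset 0.01), 719 with group means over all 10 libraries, 666 of 710 with at least 5 CpGs and 664 to 694 without 1 library (1 opposite call without replicate 1 or 2 of mLN GF or replicate 2 of pLN GF), where the lone sample is assumed to vary like the others. The 634 DMRs that reached 25 points were 611 to 644 without 1 SPF library, 702 with the median and 729 at 20 points; the 741 without overlap were 738 with the median and 748 to 760 without 1 library. The interaction stayed at 0 calls in all settings, with 10 to 52 at an unadjusted p under 0.05 (10 where 153 DMRs were left) and smallest adjusted p values of 0.164 to 0.948. The setting with group means over all 10 libraries also draws on the SPF spread, which was used in calling the DMRs. An authors' difference of at least 0.35 left 153 DMRs by construction. Of these, 151 reached 25 points, 151 did not overlap and 151 were called. By list, that left 46 homeobox, 18 T-box, 7 bHLH, 6 zinc-finger, 3 signalling, 1 matrix, 1 immune, 51 limb and 17 splanchnic DMRs called. The list of other transcription factors had no DMR left under it. Clusters numbered 21 with a gap of 20 kb.

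Deviations of same-numbered libraries had correlations of -0.0291 to 0.0484, which cannot settle whether the numbers pair the samples. With 2 libraries per GF group the GF correlations can differ only in sign. Pairing is therefore unknown. With the replicate number as a block (replicate block), 735 DMRs were called in the authors' direction and 2 in the opposite one, nearest to Gm22127 and Zxdb, and the interaction was called in 0.

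Among 119 named DMRs, CpGs with a value in all libraries and the logit scale changed no call. DMRs not called with all GF libraries that turned their sign were Syt1 with the median (10.0 points) and, without 1 library, Ptgis (-7.81 to 5.23), Gpr65 (-5.93 to 1.08), Zdhhc25 (-10.4 to 5.19), Syt1 (-12.5 to 2.50), Polq (-9.19 to 0.152), Gm21817 (-30.9 to 3.31) and Wt1 (-7.48 to 31.4 points); the cause was not tested. Of these, Gm21817 was called in the opposite direction without replicate 2 of mLN GF (-30.9 points, adjusted p = 0.0469 by limma) and Wt1 in the authors' direction without replicate 1 (31.4 points, adjusted p = 0.0272 by limma). The TSS distance of 5000 bp raised the near DMRs from 149 to 266.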
